A study of Homo sapiens with 6 samples.

Results

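The interferon-stimulated genes (ISGs) described here are 39 named genes that human cells typically switch on in response to interferon, found by their gene symbols among the 57820 genes of the count tables. All 39 were present, and 33 had enough counts to be tested among 19599 genes. RNA was sequenced from AID-DIvA cells, a derivative of the human osteosarcoma line U2OS in which the restriction enzyme AsiSI can be induced to cut the genome at known sites. All 6 samples came from untreated cells, with neither AsiSI induction nor irradiation, and no interferon treatment is named. The 3 WT samples carried intact ARID1A, a DNA-binding subunit of the SWI/SNF chromatin remodelling complex, and the 3 ARID1A-KO samples came from cells in which CRISPR-Cas9 had disrupted that gene. The knockout was established as clones, and how many clones the 3 ARID1A-KO samples came from is not stated, so that differences between genotypes and between clones cannot be told apart. The samples are numbered 3, 4 and 5 in each genotype. The study describes its replicates as independent experiments, but neither it nor the labels say whether samples of the same number share a day, culture or batch.

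Type I interferons bind the IFNAR1/IFNAR2 receptor, whose kinases JAK1 and TYK2 phosphorylate STAT2. With IRF9, STAT2 is part of the complex ISGF3, which binds the interferon-stimulated response element (ISRE) in the promoters of ISGs. The GAS element is another promoter sequence, known mainly from the response to interferon gamma. The products of ISGs bind viral RNA, degrade RNA, block translation, hold back virus entry or release, or tune the pathway itself. Many ISGs keep a low level without added interferon, and the levels here are those of cells with no named interferon treatment.

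The promoters are shown because they are where ISGF3 binds the ISRE. In the RefSeq promoter table (build GRCh38.p14, 250 bases before to 50 after each gene's start), 31 of the 39 members had an entry. The ISRE core was searched as GAAANNGAAA, read as TTTCNNTTTC on the other strand, with overlapping matches counted separately. It was present in 22 of these 31 members (71.0%), compared with 4.38% of 27305 genes and 3.57% of 35116 promoters in the table. The members held 40 such matches, of which 39 started before the gene start, and the median start over the 40 was 93.5 bases before it. GAAACTGAAA was the most frequent form, with 12 matches, followed by GAAACCGAAA with 7. A GAS-like motif, TTCNNNGAA, which reads the same on both strands, was present in 10 of the 31 (32.3%), compared with 9.38% of all genes. Matches are a description of letters and not of bound sites.

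The 60 bases around the match nearest to the gene start follow for the 7 members that differed between the genotypes in the test below and held a match, each printed on the strand of its gene with every ISRE core in capitals.
IFIT5, chr10:89414539-89414598, plus strand: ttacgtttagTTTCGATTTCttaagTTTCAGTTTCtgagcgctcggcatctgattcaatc
BST2, chr19:17405720-17405779, minus strand: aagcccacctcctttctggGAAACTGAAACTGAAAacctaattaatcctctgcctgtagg
ISG20, chr15:88638922-88638981, plus strand: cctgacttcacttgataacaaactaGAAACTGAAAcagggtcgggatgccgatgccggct
EIF2AK2, chr2:37156952-37157011, minus strand: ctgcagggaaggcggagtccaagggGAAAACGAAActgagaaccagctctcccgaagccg
DDX60, chr4:168318771-168318830, minus strand: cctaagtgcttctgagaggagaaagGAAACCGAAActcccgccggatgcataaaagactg
SAMD9, chr7:93118081-93118140, minus strand: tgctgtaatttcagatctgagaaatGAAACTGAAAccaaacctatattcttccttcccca
DTX3L, chr3:122564307-122564366, plus strand: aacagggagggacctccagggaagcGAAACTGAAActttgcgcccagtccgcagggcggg
The core of DTX3L is the same stretch of DNA as the core of PARP9, a gene transcribed in the opposite direction that overlaps the start of DTX3L in the count tables. The windows of SAMD9L and IRF9, which also differed between the genotypes, held no match. The complete window of IFI6 is given because this gene varied most between samples of the same genotype. It holds 3 cores, starting 156, 115 and 93 bases before the gene start.
IFI6, chr1:27672143-27672442, minus strand: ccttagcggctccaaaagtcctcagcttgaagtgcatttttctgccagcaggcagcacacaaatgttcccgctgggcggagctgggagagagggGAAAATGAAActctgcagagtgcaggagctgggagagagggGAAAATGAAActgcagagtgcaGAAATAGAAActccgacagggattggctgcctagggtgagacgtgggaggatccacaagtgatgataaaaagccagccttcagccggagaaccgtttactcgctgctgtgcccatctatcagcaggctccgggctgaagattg

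The samples held between 54512105 and 84088708 reverse-stranded counts, so that a count of 0 allows a level of up to 0.0357 to 0.055 CPM (3 counts, counting error only, before normalization). CPM here stands for counts scaled to library size by TMM normalization. ARID1A was at 166, 178 and 177 CPM in WT samples 3, 4 and 5 and at 25.1, 27.5 and 25.2 CPM in the ARID1A-KO samples, so that its log2 fold change was -2.74 ± 0.068 (SE throughout after log2 fold changes; adjusted p = 9.66e-08). Of 11 mesenchymal and osteoblast markers, by which the labelled cell type was checked, 7 were above 1 CPM on average. Of the others, TWIST1 had at most 3 counts in any sample, the osteoblast markers SP7 and BGLAP had 1 to 4 and 5 to 12 counts, and COL1A2 averaged 0.230 CPM in WT and 0.160 CPM in ARID1A-KO cells. The list summed to 3960 to 4700 CPM in WT and 5200 to 6000 CPM in ARID1A-KO samples. That sum was carried by VIM, with a mean of 2354 CPM in WT and 4224 CPM in ARID1A-KO cells, whereas COL1A1, SPARC, ALPL and SPP1 were called lower among the 8 markers tested. Immune cell markers summed to 2.41 to 3.28 CPM in WT and 4.24 to 5.35 CPM in ARID1A-KO samples, with CD3E at 3 counts or fewer, epithelial markers to 6.58 to 9.11 and 8.20 to 8.84 CPM, and endothelial markers (4 of 5 found) to 2.82 to 4.58 and 2.78 to 2.85 CPM. Of the 4 epithelial markers tested, EPCAM was called higher, and CDH1 and KRT14 were called lower. TEK was the only endothelial marker called, and it was lower. Among the immune markers, ITGAM was called higher (0.504 CPM in WT and 3.91 CPM in ARID1A-KO cells on average) and PTPRC, the general leukocyte marker, was called lower (1.95 and 0.445 CPM), and the part of these markers in the results on ISGs was not tested. In bulk RNA, a change in the number of expressing cells and a change in RNA per cell cannot be told apart. The 14 interferon genes looked at included IFNA1, IFNA2, IFNA5, IFNA6, IFNA8 and IFNA13 but no other interferon alpha gene. Of these 14, 8 had no count in any sample, and no other except IFNE exceeded 4 counts. IFNE passed the filter with 4 to 16 counts and did not pass the test (log2 fold change -1.10 ± 0.50, adjusted p = 0.11).

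Before the genotypes are compared, the samples numbered 5 need to be described, because ISGs were high in both of them. Sample 5 had the highest CPM of its genotype for 25 of the 33 tested members in WT, compared with 31.6% of all genes tested. In ARID1A-KO cells it was highest for 30 of 33, compared with 41.4% of all genes tested. It was highest in both genotypes for 24 members (72.7%), compared with 15.5% of all genes tested, while samples 3 and 4 were each highest in both genotypes for 1 member. The level in sample 5 was a median of 1.5-fold the mean of samples 3 and 4 in WT and 2.25-fold in ARID1A-KO cells. WT sample 5 had the fewest counts of the WT samples (59864474) and ARID1A-KO sample 5 the most of all samples, and the mitochondrial share of counts was 5.85% and 6.31% in them, within or next to the 6.07% to 6.99% of the other samples. The cause of the high level was not tested.

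IFI6, which encodes a small interferon-induced membrane protein, was the extreme case. Its CPM was 4.00, 4.65 and 30.9 in WT samples 3, 4 and 5 and 6.96, 7.68 and 56.5 in the ARID1A-KO samples, so that sample 5 was 7.15-fold and 7.72-fold the mean of the other samples of its genotype. IFI27, whose product is found at mitochondria, was at 2.01, 1.66 and 6.74 CPM in WT and 1.54, 1.75 and 6.90 CPM in ARID1A-KO cells. OAS1, which makes the 2-5A messenger that activates RNase L, was at 0.660, 0.888 and 2.68 CPM in WT and 0.661, 0.637 and 2.55 CPM in ARID1A-KO cells. For IFI27 and OAS1, the samples numbered 5 of both genotypes lay together, above the other 4 samples. At least 2-fold higher in sample 5 in both genotypes were 8 of the 33 members, namely BST2, IFI27, IFI44, IFI44L, IFI6, OAS1, OAS2 and RSAD2, against 32 of 19599 genes tested (0.163%). IFIT5 and ISG20 did not share the pattern, at 1.02-fold and 0.880-fold in WT and 0.988-fold and 0.721-fold in ARID1A-KO cells. The singling out of number 5, IFI27 and OAS1 was done with the values in view, and these folds carry no test.

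**Figure D1:**
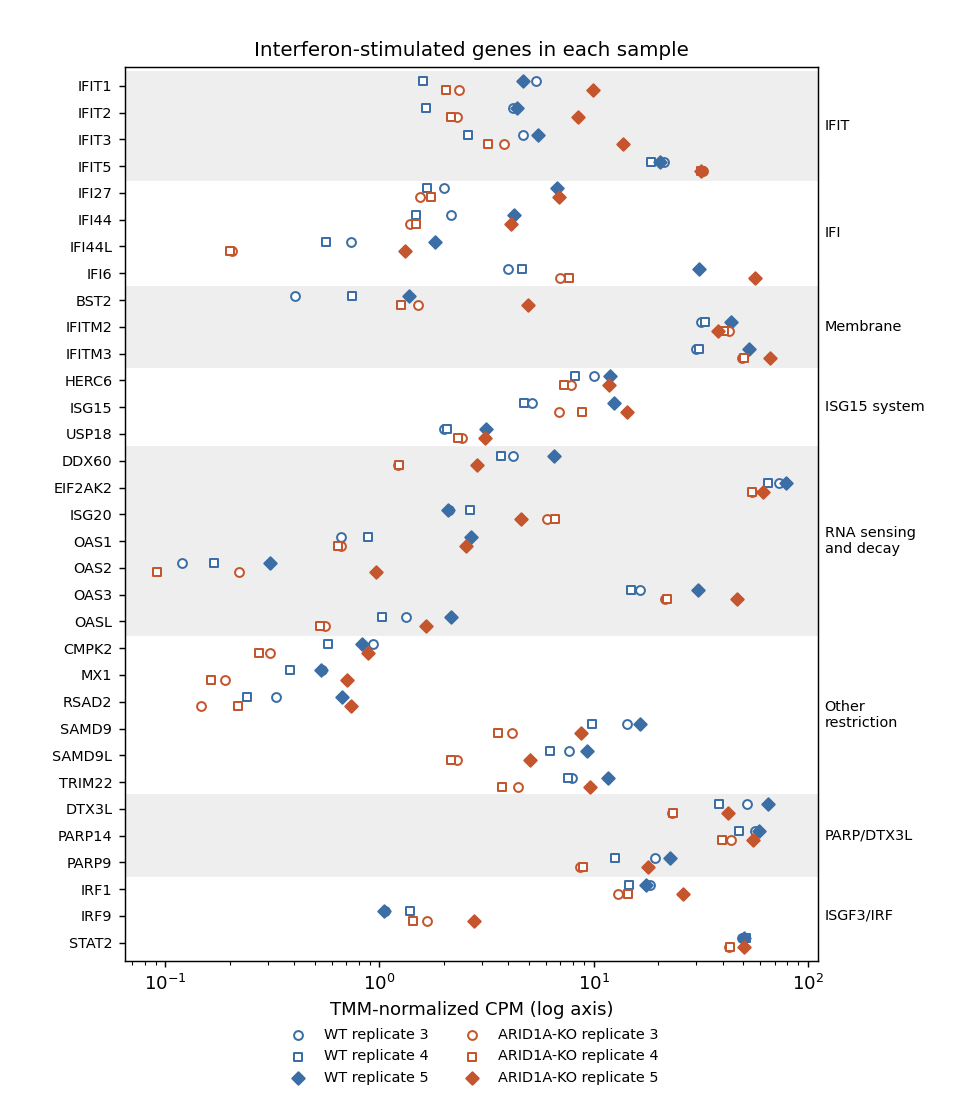
TMM-normalized CPM (log axis) of the 33 tested interferon-stimulated genes in each of the 6 samples, grouped by role, with WT in blue, ARID1A-KO in orange and samples numbered 5 as filled diamonds. The filled diamonds stand to the right in both genotypes for most genes, and are farthest from the other samples for IFI6 (30.9 and 56.5 CPM).

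**Figure D2:**
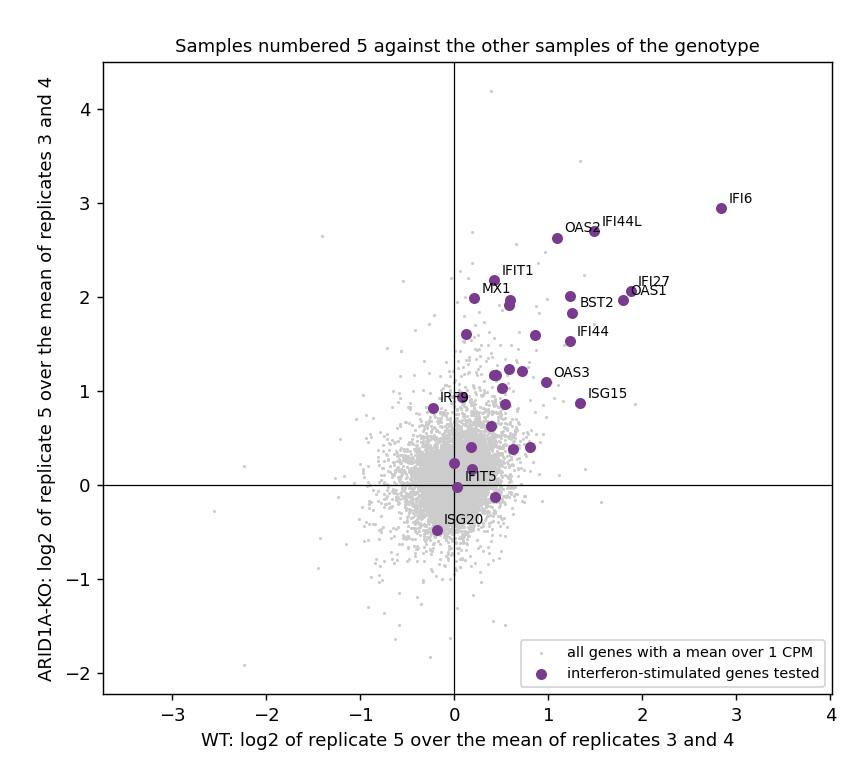
Log2 of the level in sample 5 over the mean of samples 3 and 4, in WT (x axis) and in ARID1A-KO cells (y axis), for the tested interferon-stimulated genes (purple) and all genes with a mean over 1 CPM (grey). Most members lie in the upper right, with IFI6 highest on both axes among them, while IFIT5 and ISG20 lie near or below 0.

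Across genotypes, ISGs did not move in a common direction. At an adjusted p under 0.05 in edgeR's quasi-likelihood test across all genes, which is what called means here, 9 of the 33 tested members (27.3%) were called, compared with 36.2% of all genes tested. BST2, IFIT5, IRF9 and ISG20 were higher in ARID1A-KO cells (4 members; 17.8% of all genes were called higher), and DDX60, DTX3L, EIF2AK2, SAMD9 and SAMD9L were lower (5 members; 18.4% of all genes). The other 24 did not pass. At least 2-fold and called were 5 members, compared with 10.8% of all genes. The CPM of the genotypes did not overlap for 7 members, compared with 49.5% of all genes. The median log2 fold change was -0.06 over the 33 members and 0.01 over all genes tested, with members ranging from -1.41 to 1.65 and divided into 16 above and 17 below 0. Their summed level was 452, 393 and 585 CPM in WT and 392, 389 and 615 CPM in ARID1A-KO samples 3, 4 and 5, so that the genotypes overlapped.

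These counts depended on the samples numbered 5. With both left out, a fit of 2 samples against 2 that was chosen after the data were seen, 21 of 33 members were called (8 higher and 13 lower), while 32.3% of all genes were. Besides 8 of the 9 members above, IFI6, IFITM2, IFITM3, ISG15 and OAS3 were then higher in ARID1A-KO cells, and CMPK2, IFI44L, MX1, OASL, PARP9, PARP14, STAT2 and TRIM22 were lower. Without ARID1A-KO sample 5 alone, 15 members were called, 2 higher and 13 lower, against 35.3% of all genes in that fit, and the median log2 fold change was -0.61. Without WT sample 5 alone, 10 were called, 6 higher and 4 lower, against 29.9% of all genes, and the median was 0.36. All 6 samples with the replicate number as a block gave 17 called members of 33, 7 higher and 10 lower. That fit called 38.1% of all genes, and the median log2 fold change of the members was -0.15.

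**Figure D3:**
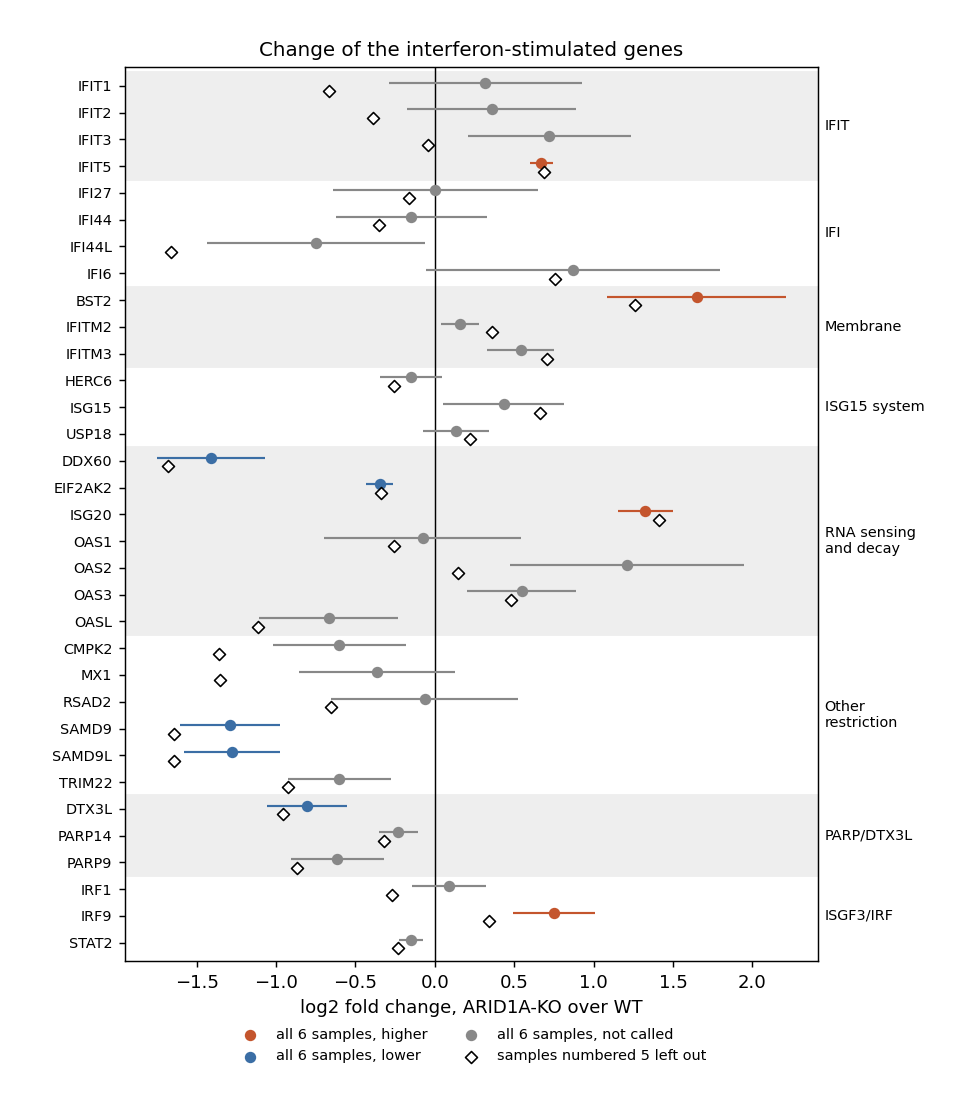
Log2 fold change (ARID1A-KO over WT) of the 33 tested interferon-stimulated genes, grouped by role. Filled points with SE bars are from all 6 samples (orange, called higher; blue, called lower; grey, not called), and open diamonds leave out both samples numbered 5. The points spread to both sides of 0, from DDX60 (-1.41) to BST2 (1.65), and IFIT1, IFIT2, IFIT3, IFI27 and IRF1 change sides when the samples numbered 5 are left out.

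The IFIT proteins bind viral RNA and block its translation. Of the 4 IFIT genes, which lie close together on chromosome 10, IFIT5 was called. IFIT5 (ENSG00000152778.7, GRCh37 chr10:91174343-91180758, plus strand) was at 21.3, 18.6 and 20.4 CPM in WT and 32.6, 31.6 and 31.7 CPM in ARID1A-KO cells. The 3 ARID1A-KO samples lay close together and above all WT samples, and the fold was 1.59 (log2 fold change 0.67 ± 0.074, adjusted p = 0.000151). IFIT5 stayed called with each sample left out in turn, with a log2 fold change between 0.62 and 0.71. Its neighbours IFIT1, IFIT2 and IFIT3 had larger spreads and log2 fold changes of 0.32 ± 0.61, 0.36 ± 0.53 and 0.72 ± 0.51 (adjusted p = 0.721, 0.638 and 0.303). All 3 were highest in ARID1A-KO sample 5, at 9.93, 8.42 and 13.7 CPM, and their direction turned without that sample, to -0.82, -0.61 and -0.27.

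Of the IFI genes, none of the 4 tested was called, compared with 36.2% of all genes. IFI6 had a log2 fold change of 0.87 ± 0.93 (adjusted p = 0.5). With sample 5 far above the others in both genotypes, the SE exceeded the change itself, and the change was -0.84 without ARID1A-KO sample 5, 2.46 without WT sample 5 and 0.76 without both, where IFI6 passed. IFI27, IFI44 and IFI44L, the last of them a feedback regulator of the response, had log2 fold changes of 0.00, -0.15 and -0.75 with adjusted p of 0.997, 0.838 and 0.43. IFI44L was at 0.734, 0.564 and 1.82 CPM in WT and 0.206, 0.20 and 1.32 CPM in ARID1A-KO cells, so that the genotypes overlapped through WT samples 3 and 4 and ARID1A-KO sample 5.

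Among the membrane proteins that hold back viruses, BST2 had the largest fold of all members. BST2, or tetherin, keeps budding virions on the cell surface (ENSG00000130303.8, GRCh37 chr19:17513748-17516457, minus strand). Its CPM was 0.405, 0.747 and 1.38 in WT and 1.51, 1.26 and 4.94 in ARID1A-KO cells. WT sample 5 overlapped the ARID1A-KO samples, and the ARID1A-KO mean was raised by sample 5. The fold was 3.14 (log2 fold change 1.65 ± 0.57, adjusted p = 0.0467), and the call was lost without WT sample 3 (adjusted p = 0.15), WT sample 4 (adjusted p = 0.0918) or ARID1A-KO sample 5 (log2 fold change 0.74, adjusted p = 0.185). IFITM3, which blocks virus entry at endosomes, was at 30.0, 30.9 and 53.3 CPM in WT and 49.3, 50.3 and 66.4 CPM in ARID1A-KO cells. WT sample 5 again lay among the ARID1A-KO samples, and IFITM3 was not called (log2 fold change 0.54 ± 0.21, adjusted p = 0.073). Without WT sample 5 it was, with a log2 fold change of 0.86. IFITM2, a close relative, was at 31.8, 33.2 and 44 CPM in WT and 43.0, 40.5 and 38.2 CPM in ARID1A-KO cells and was not called (0.16 ± 0.12, adjusted p = 0.323), while without WT sample 5 its log2 fold change was 0.32 and passed. Of the 100-base windows of their transcripts, 17.9% of IFITM1, 6.81% of IFITM2 and 8.26% of IFITM3 also occur in transcripts of other genes. Reads in these stretches may not be placed with certainty. The comparison of windows did not separate overlapping genes from genes elsewhere. The row of IFITM1 (GRCh37 chr11:313506-315272) also lies within that of IFITM2 (chr11:307631-315272) on the same strand. How this overlap affected the counts of either gene was not tested.

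ISG15 is a ubiquitin-like protein, which the ligase HERC5, a relative of HERC6, attaches to other proteins and which USP18 removes. ISG15 itself was at 5.16, 4.73 and 12.5 CPM in WT and 6.87, 8.79 and 14.3 CPM in ARID1A-KO cells, with sample 5 highest in both (log2 fold change 0.43 ± 0.38, adjusted p = 0.408). USP18 and HERC6 had log2 fold changes of 0.13 and -0.15 (adjusted p = 0.658 and 0.594). None of the 3 tested genes of this system was called, compared with 36.2% of all genes. ISG15 passed without WT sample 5, at a log2 fold change of 1.02.

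The sensors of double-stranded RNA and the RNA-degrading enzymes held 3 called members of 7, in both directions. That share (42.9%) was near the 36.2% of all genes called. ISG20, a 3' to 5' exonuclease of single-stranded RNA (ENSG00000172183.10, GRCh37 chr15:89179384-89199714, plus strand), was at 2.11, 2.65 and 2.10 CPM in WT and 6.08, 6.62 and 4.58 CPM in ARID1A-KO cells. The genotypes were well apart and sample 5 was the lowest in both, the reverse of most members. The fold was 2.51 (log2 fold change 1.33 ± 0.18, adjusted p = 0.000409), and the call held with each sample left out (1.22 to 1.47). EIF2AK2, the kinase PKR that stops translation when bound to double-stranded RNA (ENSG00000055332.12, GRCh37 chr2:37326353-37384208, minus strand), was at 73.8, 65.3 and 79.3 CPM in WT and 54.7, 55.0 and 62.0 CPM in ARID1A-KO cells. The ranges did not meet, the WT level being 1.27-fold the ARID1A-KO level (log2 fold change -0.35 ± 0.085, adjusted p = 0.0116), and the adjusted p was 0.0517 without ARID1A-KO sample 4.

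DDX60, a helicase that promotes RIG-I signalling (ENSG00000137628.12, GRCh37 chr4:169137444-169239958, minus strand), was at 4.21, 3.68 and 6.50 CPM in WT and 1.22, 1.24 and 2.85 CPM in ARID1A-KO cells. All ARID1A-KO samples lay below all WT samples, with sample 5 highest in both genotypes, and the WT level was 2.66-fold the ARID1A-KO level (log2 fold change -1.41 ± 0.34, adjusted p = 0.0107). The other genes of this part of chromosome 4 were lower as well, with a median log2 fold change of -1.18 over 23 genes tested within 5 Mb. With the median of the neighbours taken off, DDX60 changed by -0.23 and was no longer called (adjusted p = 0.636). Of the OAS family, OAS1, OAS2, OAS3 and the inactive relative OASL had log2 fold changes of -0.08, 1.21, 0.55 and -0.67, and none was called (adjusted p = 0.939, 0.23, 0.243 and 0.267). OAS3 was at 16.4, 14.9 and 30.8 CPM in WT and 21.6, 22 and 46.7 CPM in ARID1A-KO cells, highest in sample 5 of each genotype.

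Of the other restriction factors, all 6 tested had log2 fold changes below 0 with all samples in the fit, and SAMD9 and SAMD9L fell. The pair encodes related cytoplasmic proteins that restrict poxviruses and lower translation, and the genes lie 12031 bases apart on the minus strand of chromosome 7. SAMD9 (ENSG00000205413.3, GRCh37 chr7:92728829-92747336) was at 14.4, 9.86 and 16.5 CPM in WT and 4.16, 3.59 and 8.72 CPM in ARID1A-KO cells. SAMD9L (ENSG00000177409.7, GRCh37 chr7:92759368-92777682) was at 7.70, 6.24 and 9.35 CPM in WT and 2.29, 2.17 and 5.02 CPM in ARID1A-KO cells. In each gene ARID1A-KO sample 5 came nearest to the WT samples without reaching them. The WT level was 2.45-fold the ARID1A-KO level for SAMD9 (log2 fold change -1.29 ± 0.32, adjusted p = 0.0111) and 2.42-fold for SAMD9L (-1.28 ± 0.31, adjusted p = 0.00982). Both stayed called with each sample left out, narrowly so without WT sample 5 (adjusted p = 0.0481 for SAMD9 and 0.0431 for SAMD9L). With both samples numbered 5 left out, the log2 fold change was -1.64 for each. Within 5 Mb, the median over the remaining tested genes was 0.00.

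MX1, a dynamin-like GTPase that traps viral ribonucleoproteins, RSAD2 (viperin), its neighbour CMPK2 and TRIM22 had log2 fold changes of -0.37, -0.06, -0.60 and -0.60 and were not called (adjusted p = 0.602, 0.946, 0.295 and 0.177). MX1 was at 0.540, 0.380 and 0.533 CPM in WT and 0.191, 0.164 and 0.704 CPM in ARID1A-KO cells, so that the ARID1A-KO samples held both the lowest and the highest values. CMPK2 was at 0.929, 0.578 and 0.825 CPM in WT and 0.309, 0.273 and 0.886 CPM in ARID1A-KO cells, with ARID1A-KO sample 5 among the WT samples. Without ARID1A-KO sample 5, MX1, CMPK2 and TRIM22 were called lower, with log2 fold changes of -1.42, -1.40 and -1.15.

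DTX3L, a ubiquitin ligase, works together with the ADP-ribosyltransferase-like PARP9, and the genes share a promoter region on chromosome 3. DTX3L (ENSG00000163840.5, GRCh37 chr3:122283085-122294050, plus strand) was at 52.1, 38.5 and 65.5 CPM in WT and 23.1, 23.5 and 42.4 CPM in ARID1A-KO cells. ARID1A-KO sample 5 lay above WT sample 4, and the WT level was 1.75-fold the ARID1A-KO level (log2 fold change -0.80 ± 0.25, adjusted p = 0.032). The call was lost without WT sample 3, WT sample 5, ARID1A-KO sample 3 or ARID1A-KO sample 4 (adjusted p = 0.0771, 0.125, 0.102 and 0.105), and in DESeq2 (adjusted p = 0.0784). PARP9 was at 19.3, 12.6 and 22.7 CPM in WT and 8.61, 8.88 and 18.0 CPM in ARID1A-KO cells and did not pass (-0.61 ± 0.30, adjusted p = 0.136), nor did PARP14 (-0.23 ± 0.13, adjusted p = 0.183). The median log2 fold change of the neighbours of DTX3L was -0.43, and with it taken off DTX3L changed by -0.38 and was not called (adjusted p = 0.282).

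Of the transcription factors, IRF9 was called higher, STAT2 and IRF1 did not pass, and IRF7 could not be measured. IRF9, the DNA-binding part of ISGF3 (ENSG00000213928.4, GRCh37 chr14:24630262-24635774, plus strand), was at 1.06, 1.40 and 1.05 CPM in WT and 1.67, 1.44 and 2.76 CPM in ARID1A-KO cells. WT sample 4 and ARID1A-KO sample 4 were nearly equal, and the fold was 1.69 (log2 fold change 0.75 ± 0.26, adjusted p = 0.0472). The call was lost without WT sample 3, WT sample 5, ARID1A-KO sample 3 or ARID1A-KO sample 5 (adjusted p = 0.138, 0.136, 0.0548 and 0.141), with the neighbours' median of 0.29 taken off (log2 fold change 0.46, adjusted p = 0.204) and with both samples numbered 5 left out (0.34, adjusted p = 0.265). Of the 100-base windows of IRF9 transcripts, 15.4% also occur in the transcripts of another gene, so its counts may be less certain. Whether they are was not tested. STAT2 was at 49.5, 51.4 and 50.6 CPM in WT and 42.7, 43.2 and 50.6 CPM in ARID1A-KO cells (log2 fold change -0.15 ± 0.077, adjusted p = 0.16), with ARID1A-KO sample 5 at the WT level. IRF1, which also responds to interferon gamma, was at 18.3, 14.7 and 17.5 CPM in WT and 13.0, 14.4 and 26.2 CPM in ARID1A-KO cells (0.09 ± 0.23, adjusted p = 0.795).

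IRF7, the factor that amplifies interferon production, had no reverse-stranded count in any sample. On the opposite strand, 70, 85 and 44 counts in WT and 52, 50 and 72 in ARID1A-KO samples were assigned to its row, and these give no level for the gene. The other members left untested for low counts were IFI35, IFITM1, HERC5, MX2 and XAF1. HERC5 had 11, 6 and 5 counts in WT and 3, 1 and 1 in ARID1A-KO samples. MX2 had at most 5 counts in any sample.

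**Figure D4:**
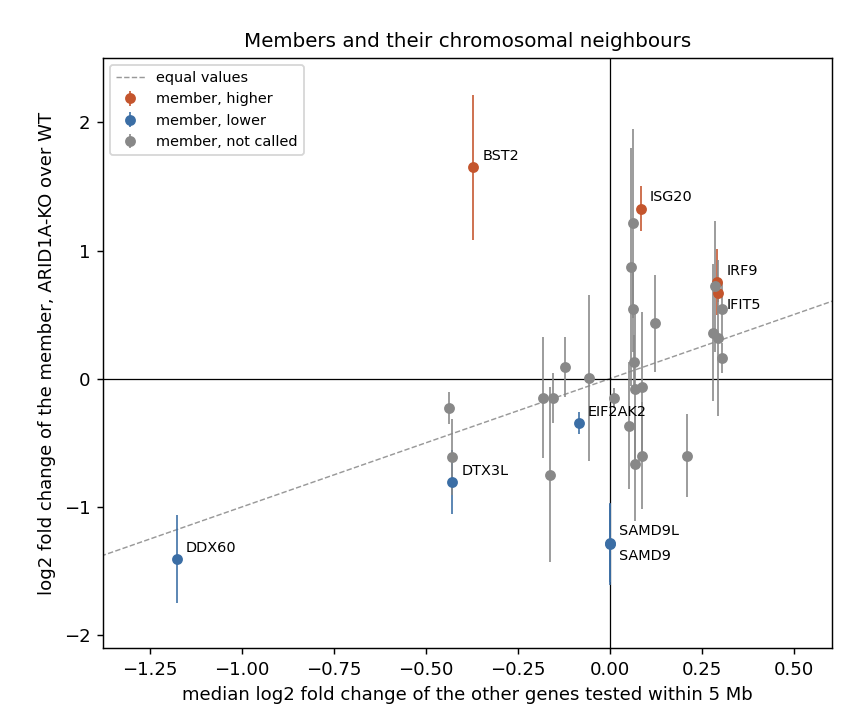
Log2 fold change of each tested member (y axis, with SE bars) against the median log2 fold change of the other genes tested within 5 Mb (x axis), with the dashed line marking equal values. DDX60 lies near the line at -1.18 on the x axis, whereas SAMD9 and SAMD9L lie at -1.29 and -1.28 on the y axis with neighbours at 0.00, and BST2 lies at 1.65 with neighbours at -0.37.

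Some members share a region, and the regional change differed between them. With the median of the neighbours within 5 Mb taken off, 6 of 33 members remained called, compared with 32.0% of all genes. BST2, IFIT5 and ISG20 were higher, and EIF2AK2, SAMD9 and SAMD9L were lower. IFIT5 had neighbours at 0.29 and a log2 fold change of 0.38 after subtraction. BST2 had neighbours at -0.37, and its log2 fold change grew to 2.02 (adjusted p = 0.0239).

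Among members with a promoter entry, the ISRE core was present in 3 of 4 called higher, 4 of 5 called lower and 13 of 18 not called, so that members with the core moved in both directions or did not pass.

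Upstream of these genes, 17 of 18 receptor, kinase and feedback genes were tested and 5 were called (29.4%), all lower in ARID1A-KO cells, against 36.2% of all genes called and 18.4% called lower. SOCS3, a feedback inhibitor of cytokine receptors, was at 26.3, 18.2 and 30.4 CPM in WT and 6.86, 8.37 and 13.8 CPM in ARID1A-KO cells (log2 fold change -1.36 ± 0.26, adjusted p = 0.00311). STAT3 fell as well (-0.85 ± 0.15, adjusted p = 0.00228), as did the kinases JAK2 (-0.82 ± 0.11, adjusted p = 0.000465) and TYK2 (-0.32 ± 0.069, adjusted p = 0.00554) and the SUMO ligase PIAS1 (-0.21 ± 0.062, adjusted p = 0.0251). The neighbours within 5 Mb had a median of -0.84 for JAK2 and of -0.27 for TYK2. Sample 5 was highest in both genotypes for 4 of the 17 (23.5%).

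A further list of 49 genes known to respond to interferon had 40 tested and 8 called (20.0%, against 36.2% of all genes), 6 higher and 2 lower, with a median log2 fold change of 0.04. GBP2, a guanylate-binding GTPase, was at 1.09, 0.733 and 1.07 CPM in WT and 2.31, 2.20 and 7.33 CPM in ARID1A-KO cells (2.05 ± 0.46, adjusted p = 0.00727), again with its highest value in ARID1A-KO sample 5. The peptide transporter TAP1 rose by 0.90 ± 0.20 on the log2 scale (adjusted p = 0.00762), the cytidine deaminase APOBEC3F by 0.83 ± 0.13 (adjusted p = 0.00119), LAMP3 by 0.69 ± 0.12 (adjusted p = 0.00217) and HELZ2 by 0.59 ± 0.14 (adjusted p = 0.00819). The scramblase PLSCR1 fell (log2 fold change -0.57 ± 0.083, adjusted p = 0.000734). Sample 5 was highest in both genotypes for 19 of the 40 (47.5%), compared with 15.5% of all genes. The ISRE core was present in 18 of 36 genes of this list with a promoter entry and in 1 of 15 receptor and signalling genes (6.67%).

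Levels between genes were compared as RPKM, which divides the normalized count by the exonic length of the gene. The highest mean level over the 6 samples was that of IFITM3 at 34.6 RPKM, followed by IFITM2 at 29.4, IFI6 at 21.3, ISG15 at 12.3 and STAT2 at 7.85 RPKM. With the SD over the 3 samples of a genotype, IFITM3 was at 28.2 ± 9.78 RPKM in WT and 41.0 ± 7.12 RPKM in ARID1A-KO cells, and IFITM2 at 27.8 ± 5.12 and 31.0 ± 1.81, so that this pair did not differ in WT beyond its spread. IFI6 stood at 15.3 ± 17.8 and 27.4 ± 32.8 RPKM, where the SD exceeds the mean, and its place in the order rested on the samples numbered 5. ISG15 was at 10.5 ± 6.15 and 14.1 ± 5.45 RPKM and STAT2 at 8.26 ± 0.153 and 7.44 ± 0.726, with ISG15 in WT samples 3 and 4 below STAT2. The lowest tested member was MX1, at 0.0486 RPKM, and 13 of the 33 were under 1 RPKM. The median was 1.26 RPKM in WT and 1.23 in ARID1A-KO cells, against 2.62 RPKM over all genes tested.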

How the data were processed

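The RNA-seq samples, 3 WT and 3 ARID1A-KO, were grouped by the genotype label. According to the methods of the study, the authors aligned the read pairs to GRCh37 using STAR (Roddy workflow) and counted them per gene using featureCounts; the deposited counts are whole numbers and not normalized. The deposited TPM values were computed by the authors and sum to the same total in each sample. Tool versions are not given in the sources used here. The labels name polyA RNA, whereas the library kit named is one for total RNA. Reverse-stranded counts were used, since the forward strand held 5.83% to 6.15% as many. Samples had 54512105 to 84088708 counts, which leaves counting error of note only in the lowest members. Replicates differed by more than sampling noise (chi-square between 6.95 and 33.4 for each gene on average).

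After filterByExpr and TMM normalization, genotypes were compared by the quasi-likelihood test of edgeR 4.0.16 (R 4.3.3). No covariate entered the fit, which used all 6 samples, with Benjamini-Hochberg adjustment over 19599 genes and a threshold of 0.05. The common biological coefficient of variation was 0.111. Alternatives were RLE size factors, DESeq2 1.42.0, no filter, at least 10 counts in every sample, unstranded counts, the replicate number as a block, the median change of neighbours within 5 Mb taken off, an adjusted p under 0.01, each sample left out and, for levels, TPM. The fits were tested on simulated data, in which every gene had the same biological coefficient of variation (0.111) and no sample stood apart. That test does not cover the larger spread of members such as IFI6. The fit without the samples numbered 5, the promoter motifs and the shared 100-base windows were chosen after the data were seen.

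Of the members, sample values are given for called ones, the 5 of highest RPKM, STAT2, IRF9, IRF1 and IRF7, and those whose call is lost without 1 sample; the context lists give up to 6 called genes of largest change. The results of some genes of these lists are not reported here. Other genes with sample values (IFI27, OAS1, OAS3, IFI44L, MX1, CMPK2, PARP9, HERC5, MX2 and those flagged) were added after their values were seen. The members and lists were chosen with earlier results of these data known. In the promoter table, 8 members had no entry (IFIT2, IFITM2, USP18, OAS2, OASL, MX2, TRIM22 and IRF7).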

Additional observations from a re-analysis of the deposited data

Results flagged for a closer look

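Of the 6 members too low to be tested, 3 had a level in the ARID1A-KO sample numbered 5 above that of every WT sample. IFITM1 reached 1.06 CPM (93 counts) there, against at most 0.223 CPM in WT and 0.109 CPM in the other ARID1A-KO samples. Its row lies within that of IFITM2 on the same strand, which leaves its counts less certain. XAF1 reached 0.239 CPM (21 counts), against at most 0.0172 CPM in WT. IFI35 reached 0.148 CPM (13 counts), against at most 0.0749 CPM in WT and 0.109 CPM in the other ARID1A-KO samples. Each value is that of 1 sample and carries no test.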

How the results depend on the processing

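The 9 calls among the members became 23 of 38 without a filter on low counts (22.6% of all genes) and 17 of 33 with the replicate block (38.1% of all genes). They became 21 with both samples numbered 5 left out (32.3% of all genes) and 3 at an adjusted p under 0.01, where 4414 of all genes (22.5%) were called. They ranged from 6 to 15 with each sample left out, with 15 without ARID1A-KO replicate 5, while 26.2% to 35.3% of all genes were called. Called members changed by at least 2-fold numbered 9 without a filter, 9 with both samples numbered 5 left out and 4 to 11 with each sample left out. In the fit of all 6 samples they numbered 5, compared with 10.8% of all genes. For the other fits no share of all genes at 2-fold is given, so their counts cannot be read against a background. Calls in the further list of responding genes numbered 19 of 49 without a filter, 13 of 40 with the replicate block and 13 of 39 with both samples numbered 5 left out. The shares of all genes in these fits were 22.6%, 38.1% and 32.3%. RLE size factors, DESeq2, a minimum of 10 counts, unstranded counts and subtraction of the neighbours gave 9, 7, 8, 8 and 6 calls among the members. Of all genes, 36.1%, 35.1%, 36.7%, 34.1% and 32.0% were called in these fits. IRF9 was not called with unstranded counts (adjusted p = 0.0501), and BST2 was not called in DESeq2 (0.0961) or with at least 10 counts in every sample (0.0501). The 10 members of highest level were the same by RPKM and by the TPM of the authors. Except where said here, the cause of these differences was not tested.

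Over all genes, the replicate numbers were not taken as pairs, because not every number deviated together: the deviations of same-numbered samples from their genotype means correlated at -0.177, 0.268 and 0.18 for numbers 3, 4 and 5, although over the members they correlated at 0.292, 0.487 and 0.698, and 2 of the 6 samples correlated best with their own number. With the replicate block, 8 of the 9 calls remained, IRF9 being lost (adjusted p = 0.0536), and 7 members were called higher and 10 lower, against 4 and 5 without the block. IFI6 (log2 fold change 0.80, adjusted p = 0.000107), IFITM3, ISG15 and OAS3 were then among the higher and IFI44L, OASL, PARP9, PARP14 and TRIM22 among the lower.

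No call turned its direction. Among members that were not called, with both samples numbered 5 left out IFIT1 was at -0.66, IFIT2 at -0.39, IFIT3 at -0.043, IFI27 at -0.16 and IRF1 at -0.27 on the log2 scale. IFI27, at 0.004 in the fit of all samples, was at -0.007 with RLE size factors, -0.04 in DESeq2, -0.004 without a filter and -0.082 with the replicate block. With the neighbours taken off, IFI44 was at 0.034, IFITM2 at -0.15, HERC6 at 0.006 and PARP14 at 0.21. With each sample left out, log2 fold changes that changed sign ranged from -0.82 to 0.67 for IFIT1, -0.61 to 0.67 for IFIT2, -0.27 to 1.06 for IFIT3, -0.84 to 2.46 for IFI6, -1.07 to 0.91 for IFI27, -0.87 to 0.37 for IFI44, -0.013 to 0.36 for USP18, -1.10 to 0.76 for OAS1, -0.28 to 1.63 for OAS2, -1.16 to 0.44 for RSAD2 and -0.30 to 0.28 for IRF1. The 6 untested members had too few counts for the filter, and for IRF7 the counts lay on the opposite strand.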
